A study of Homo sapiens with 5 samples.

Results

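Collagens, laminins and integrins are the structural proteins of the extracellular matrix and the receptors through which cells hold on to it. Their genes were taken by name from the deposited tables: collagen chains (COL, a number, A, a number), laminin alpha, beta and gamma chains (LAMA, LAMB, LAMC), and integrin alpha and beta subunits (ITGA, ITGB). Of 27992 gene names in the count table, 81 matched, namely 43 collagens, 12 laminins and 26 integrins, and the same 81 were found in the TPM table.

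The study graded E2F1, a factor that switches on genes of DNA replication, in U2OS cells, a human osteosarcoma line. One library was made from parental U2OS cells without the construct. Another 4 were made from U2OS cells carrying pTRIPZ-YFP-ER-E2F1, a doxycycline-inducible fusion of YFP, the hormone-binding part of the oestrogen receptor and E2F1. These cells were parted by their fluorescence in a flow cytometer, and the 4 gates, YFP-negative to YFP-low to YFP-medium to YFP-high, are called the YFP order. All 5 libraries, the parental one included, carry the same treatment label: doxycycline at 500 ng/ml for 48 h, with 4-hydroxytamoxifen (OHT) at 90 nM during 20 h after that, in medium with 8% fetal bovine serum. The sources used here do not say whether the construct-bearing cells were 1 clone or a pool, and no library without the agents was analysed here. Each group is 1 library, which leaves the spread between samples unknown: no test was made, no p-value is given, and intervals cover counting error only.

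Gene reads numbered 70.7 M to 76.5 M per library. E2F1 followed the gates, at 86.1 reads per 1000000 gene reads after scaling (CPM) in parental cells and 106, 163, 361 and 996 in the YFP order; reads of the construct and of the resident gene are counted together. Among osteoblast markers RUNX2 lay between 32.5 and 50.7 CPM and ALPL between 9.5 and 12.5 CPM in the 5 libraries, whereas SP7, BGLAP and IBSP, markers of mature osteoblasts, stayed at or below 0.110 CPM. Of 7 leukocyte markers 2 were analysed and 1, CORO1A, was higher in YFP-high (4.09 CPM in YFP-negative, 15.1 in YFP-high), while the list summed to 7.77 to 20.1 CPM and its T cell marker CD3E stayed at or below 0.0313 CPM. Of 4 platelet markers PF4 and GP9 had 0 reads in all 5 libraries, and the 1 analysed, GP1BA, was higher in YFP-high (1.08 to 2.75 CPM). Of 5 endothelial markers 3 were analysed and 1, KDR, was higher (0.0360 to 1.88 CPM), with the list summing to 2.21 to 4.84 CPM. KDR lay below 1 CPM in YFP-negative, and analysis required 1 CPM in any library, so its call follows in part from that filter. Beside these calls, 20.5% of all genes analysed were higher in YFP-high against YFP-negative. The part of these markers in the results was not tested. In such bulk RNA a smaller number of expressing cells and less RNA per cell cannot be told apart.

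A collagen molecule is a triple helix of 3 chains. Fibrillar collagens form the tension-bearing fibrils of bone, skin and tendon, and type I, the main protein of bone, is normally built from COL1A1 and COL1A2 chains. Type IV collagens and laminins, which are trimers of an alpha, a beta and a gamma chain, form the sheets of basement membranes. Integrins are pairs of an alpha and a beta subunit that bind these ligands outside the cell and the actin or keratin cytoskeleton inside it, and each alpha subunit can use only certain beta subunits.

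A level of 1 CPM or more in any of the libraries was required, which kept 59 of the 81 (72.8%): 27 collagens, 11 laminins and 21 integrins. Of these 51 reached 1 CPM in every library. COL4A3 and ITGA9 passed only through YFP-high and COL20A1 and LAMA4 only through the parental library, so a difference in those genes follows in part from the filter. The 22 genes below the filter, 16 collagens, 5 integrins and 1 laminin, had between 0 and 62 reads in any library. They included ITGAL, ITGAM and ITGAD, alpha subunits of leukocytes, ITGA8, ITGB6 and LAMB4. The collagens among them were COL2A1, the main collagen of cartilage, COL10A1, of its growth plate, and COL4A6, COL6A5, COL6A6, COL9A1, COL9A3, COL11A2, COL14A1, COL19A1, COL21A1, COL23A1, COL24A1, COL25A1 and COL28A1. COL23A1, a transmembrane collagen, had 2, 3, 4 and 5 reads from parental to YFP-medium and 43 in YFP-high, and was called higher once the filter was dropped. The last was COL1A2, at 26, 26, 31, 22 and 16 reads from the parental to the YFP-high library.

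Higher and lower mean a log2 ratio past 2-fold, after adding 0.5 CPM to both levels, with a 95% counting interval of the fold that leaves out 1. Against YFP-negative, YFP-low had 1 higher and 0 lower of the 59 genes, beside 2.11% higher and 0.0463% lower among all 15109 genes analysed (2.16% in either direction). YFP-medium had 2 higher and 0 lower, beside backgrounds of 9.76% and 2.21% (12.0% in either direction). In YFP-high 8 were higher (13.6%) and 9 lower (15.3%), beside 20.5% and 11.3% of all genes (31.7% in either direction). The median log2 ratio of the 59 genes was -0.08, -0.25 and -0.13 in the 3 fractions, and that of all genes -0.000794, -0.01 and -0.04. The split in YFP-high depended on the scaling. Total counts, which move the median of all genes by -0.26, gave 6 higher and 15 lower, beside 16.0% and 19.0% of all genes.

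Between construct-bearing YFP-negative cells and parental cells the difference was one-sided: 14 of the 59 genes were lower (23.7%) and 2 higher (3.39%), beside 2.93% lower and 2.15% higher among all genes (5.08% in either direction). YFP-high against parental gave 24 lower and 7 higher, beside 14.9% and 21.3% of all genes (36.2% in either direction). The parental library held the highest level of 31 of the 59 genes (52.5%), beside 30.8% of all genes, and for collagens the count was 17 of 27. From YFP-negative to YFP-high, 18 genes fell at every step and 11 rose at every step (30.5% and 18.6%), beside 27.9% and 24.1% of all genes; with total counts 28 fell, beside 40.2% of all genes. These comparisons share libraries and are therefore given side by side only.

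Most fibrillar collagens were highest in parental cells and lower still with more YFP. COL1A1, the alpha chain of type I collagen found in bone, had 3271 CPM in parental cells and 1254, 1090.3, 944 and 750.4 across the YFP fractions. No library broke the downward order, and the largest gap lay between parental and YFP-negative cells, at 2.61-fold lower (2.59 to 2.63). From YFP-negative to YFP-high COL1A1 was 1.67-fold lower, with a log2 ratio of -0.74, short of the 2-fold rule; with total counts it passed the rule. COL1A1 made up 45.1% of the summed collagen TPM (transcripts in 1000000, a unit corrected for gene length) in parental cells, 26.9% in YFP-low and 22.3% in YFP-high. Its usual partner COL1A2 lay between 0.111 and 0.189 TPM in all 5 libraries, against 302 to 1423 TPM for COL1A1. Type I collagen transcripts of these cells were thus almost only of the COL1A1 chain, at every YFP level and in parental cells alike.

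COL3A1, the single chain of type III collagen, went from 84.8 CPM in parental cells to 17.2, 14.4, 12.3 and 8.28 CPM in the YFP order. It was 4.92-fold lower in YFP-negative than in parental cells (4.65 to 5.21) and a further 2.08-fold lower in YFP-high (1.88 to 2.30). COL5A2, a type V chain that takes part in fibril assembly, had 189.5, 98.1, 82.9, 61.6 and 42.0 CPM in the same order, and was 2.34-fold lower in YFP-high than in YFP-negative (2.24 to 2.44). COL11A1, a type XI chain best known from cartilage, had 125, 61.7, 52.9, 36.4 and 26.3 CPM, and was 2.35-fold lower (2.22 to 2.48). All of these fell at each step of the YFP order, as did COL5A1, with 471, 263, 216, 164 and 147 CPM and a log2 ratio of -0.83 in YFP-high. With DESeq2 size factors or a pseudocount of 2 CPM COL3A1 no longer passed the 2-fold rule.

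Other fibrillar genes departed from this order. COL5A3 had 29.5 CPM in parental cells and then 10.4, 10.3, 11.8 and 10.2 CPM, so that it differed between the cell lines but little between YFP fractions. COL27A1, a collagen of cartilage and bone, had 34.1 CPM in parental cells and 35.5, 29.2, 24.9 and 49.5 CPM in the YFP order, highest in YFP-high. Of the 7 fibrillar genes analysed 3 were lower and 0 higher in YFP-high against YFP-negative, beside 11.3% lower and 20.5% higher among all genes, with a median log2 ratio of -0.83. In YFP-negative against parental 4 were lower, beside 2.93% of all genes. Of 7 fibroblast markers 5 were analysed, with 0 higher and 2 lower in YFP-high, beside 20.5% and 11.3% of all genes. PDGFRB was 3.57-fold and LUM 2.05-fold lower. The summed level of that list was 1814 CPM in parental cells and 1578 to 1714 CPM in the YFP fractions, most of it VIM; the part of these markers in the collagen values was not tested.

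**Figure D1:**
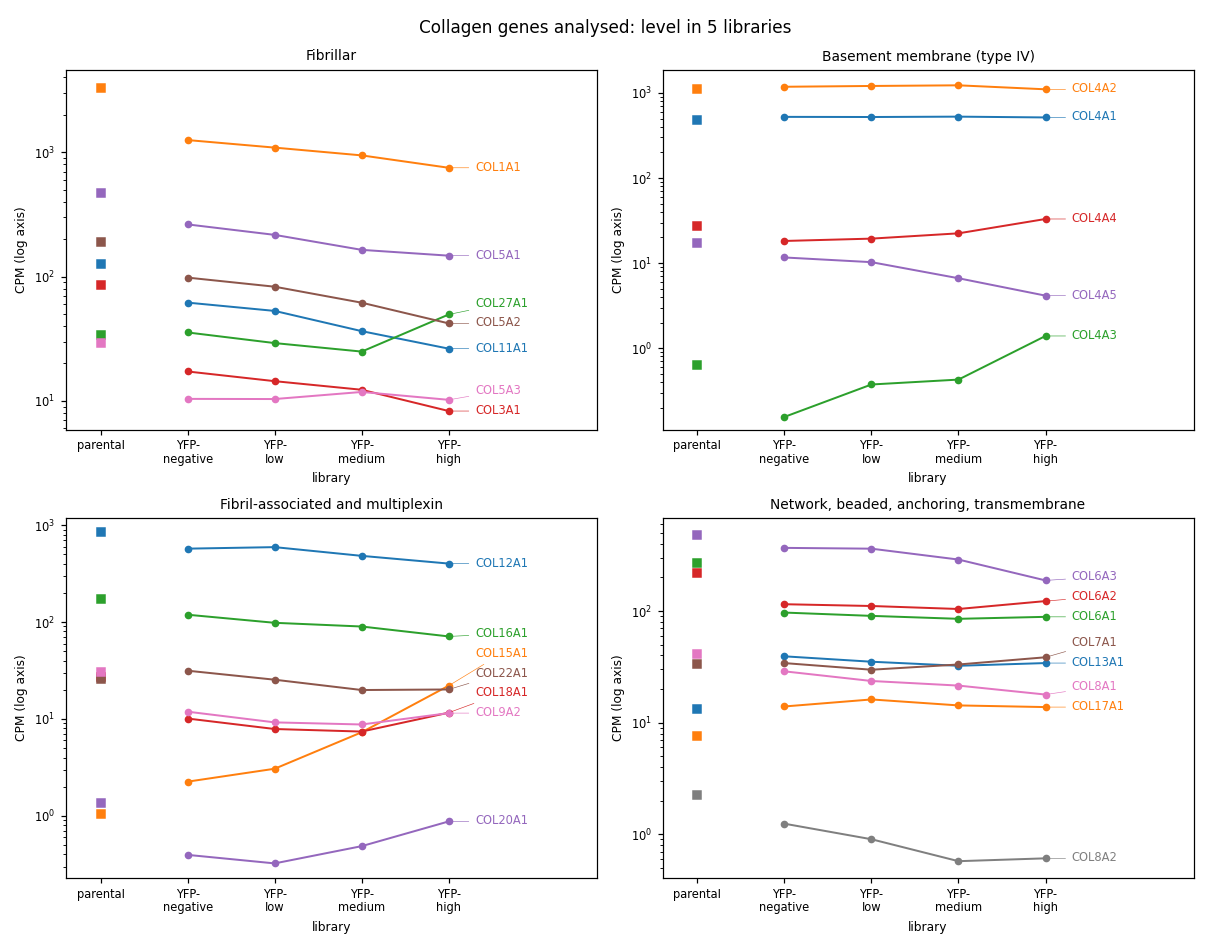
Level of the 27 collagen genes analysed, in CPM on a log axis, in 1 library per group; squares are parental cells and joined circles the YFP fractions. COL1A1 goes from 3271 CPM in parental cells to 750.4 CPM in YFP-high, COL4A1 and COL4A2 run level, and COL15A1 climbs to 22.0 CPM.

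Type IV collagen genes lie in head-to-head pairs, each pair read in opposite directions from starts close together. By RefSeq starts on GRCh38.p14, 126 bases lie between COL4A1 and COL4A2 on chromosome 13, 418 between COL4A4 and COL4A3 on chromosome 2, and 379 between COL4A6 and COL4A5 on chromosome X. The bases before the start of the second gene of each pair are shown for comparison, and a link to the levels was not tested. All 126 are given for the first pair (chr13:110307158-110307283) and 250 for the others (chr2:227164374-227164623 and chrX:108439588-108439837), on the plus strand. Capitals mark CCAAT and GGGCGG, short motifs common in promoters, on either strand.
COL4A1-COL4A2: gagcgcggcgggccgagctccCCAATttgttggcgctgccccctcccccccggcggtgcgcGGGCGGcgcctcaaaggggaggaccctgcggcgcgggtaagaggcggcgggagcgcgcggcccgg
COL4A4-COL4A3: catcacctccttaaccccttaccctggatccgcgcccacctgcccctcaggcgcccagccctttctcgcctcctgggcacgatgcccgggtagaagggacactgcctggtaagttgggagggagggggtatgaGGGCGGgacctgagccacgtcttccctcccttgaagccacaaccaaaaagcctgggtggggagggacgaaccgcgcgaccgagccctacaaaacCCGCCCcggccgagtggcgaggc
COL4A6-COL4A5: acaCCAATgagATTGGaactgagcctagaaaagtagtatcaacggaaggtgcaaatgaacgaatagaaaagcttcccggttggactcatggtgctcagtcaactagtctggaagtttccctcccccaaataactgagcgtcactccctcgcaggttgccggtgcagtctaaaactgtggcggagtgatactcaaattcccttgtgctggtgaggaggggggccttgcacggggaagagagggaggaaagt
The stretch of the first pair was 80.2% G and C and held 1 CCAAT and 1 GGGCGG. The second was 66.4% G and C with 2 GGGCGG, and the third 51.2% with 2 CCAAT. In 300-base windows around gene starts, 34.6% of all 35116 windows held CCAAT and 45.0% GGGCGG.

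COL4A1 and COL4A2, the chains of nearly all basement membranes, kept their level on the TMM scale, with log2 ratios of -0.02 and -0.10 in YFP-high. COL4A1 had 479 CPM in parental cells and 523, 521, 526 and 515 from YFP-negative up to YFP-high. COL4A2 had 1117, 1181, 1207, 1228 and 1102 CPM, and the TPM ratio of COL4A2 to COL4A1 stayed between 2.24 and 2.44. COL4A2 was the most abundant collagen transcript per length in YFP-low, YFP-medium and YFP-high, at 418 TPM in YFP-high beside 302 TPM for COL1A1.

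The minor type IV chains differed pair by pair. COL4A4 had 18.2, 19.4, 22.4 and 33.0 CPM in the YFP order (27.1 in parental), a log2 ratio of 0.84 in YFP-high. COL4A3, its neighbour and partner chain in the kidney glomerulus, had 13, 29, 29 and 89 reads in the YFP order (50 in parental), level between YFP-low and YFP-medium within counting error, and was 8.94-fold higher in YFP-high (4.97 to 17.4). COL4A3 stayed at 1.39 CPM or less; with a pseudocount of 2 CPM or with TPM it did not pass the rule. COL4A5 fell from 11.7 CPM in YFP-negative to 10.3, 6.64 and 4.15 CPM (17.1 in parental), 2.81-fold lower in YFP-high (2.45 to 3.23). COL4A6, below the filter, had 58 reads in parental cells and 59, 29, 16 and 9 in the YFP order. From YFP-negative to YFP-high both genes of each pair thus went the same way, or stayed level together.

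COL15A1, whose product bridges basement membranes and fibrils, stood out among the collagens. It had 1.04 CPM in parental cells and 2.25, 3.06, 7.29 and 22.0 in the YFP order. Each YFP step was higher than the one before, and YFP-high was 9.78-fold above YFP-negative (8.40 to 11.5). It was also called in YFP-medium, at 3.23-fold (2.73 to 3.85). COL18A1, the other gene of this type and the source of endostatin, had 27.2, 10.1, 7.87, 7.41 and 11.6 CPM and did not follow it; in the GENCODE annotation 16.4% of its exon bases overlap SLC19A1 on the other strand.

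Fibril-associated collagens, which coat fibrils, gave no call in YFP-high, with 0 of 5 higher or lower, beside 31.7% of all genes. COL12A1 was the most abundant per length, at 79.9 to 181 TPM; its counts gave 840.0 CPM in parental cells and 572, 593, 482 and 401 CPM in the YFP order. COL16A1 fell at every step, with 173, 119, 98.2, 89.9 and 71.0 CPM. COL9A2, a cartilage collagen, was 2.59-fold lower in YFP-negative than in parental cells (2.41 to 2.79) but was at 11.9, 9.21, 8.76 and 11.5 CPM in the YFP order. COL20A1, at 33 reads in YFP-negative against 108 in parental cells, was also called lower there. COL22A1, found at tissue junctions, had 25.6, 31.5, 25.4, 19.9 and 20.1 CPM.

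The 3 main chains of type VI collagen, which assemble into beaded filaments, did not keep in step. COL6A1 had 270.3 CPM in parental cells and 96.9, 90.5, 85.2 and 88.7 CPM in the YFP fractions, so its difference lay between the cell lines, at 2.79-fold (2.72 to 2.86). COL6A2 had 219, 115, 111, 104 and 123 CPM. COL6A3 had 483, 368, 362, 289 and 188 CPM, with its steepest fall at high YFP (log2 ratio -0.97). The TPM ratio of COL6A3 to COL6A1 therefore went from 0.526 in parental cells to 1.12 in YFP-negative and back to 0.624 in YFP-high. COL8A1, a chain of the hexagonal network under endothelia, fell at every step, with 40.9, 28.8, 23.6, 21.5 and 17.9 CPM, and COL8A2, its partner, stayed between 0.575 and 2.23 CPM.

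Among anchoring and transmembrane collagens COL13A1, found at cell adhesion sites, was the collagen called higher in the construct line. It had 13.4 CPM in parental cells and 39.3, 35.2, 32.3 and 34.2 CPM in the YFP fractions, a 2.94-fold difference (2.74 to 3.15) that changed little with YFP. COL17A1, a hemidesmosome collagen, had 7.54 CPM in parental cells and 13.8 to 16.2 CPM in the others, and COL7A1, which forms anchoring fibrils, 29.8 to 38.5 CPM throughout.

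Of the 5 laminin alpha chains analysed, which carry the sites that integrins bind, LAMA5 and LAMA4 were lower in YFP-negative than in parental cells, beside 2.93% of all genes. LAMA5, the most widespread alpha chain of adult basement membranes, had 373 CPM in parental cells and 75.4, 92.3, 109 and 152 across the YFP fractions. It was 4.94-fold lower in YFP-negative than in parental cells (4.81 to 5.08) and then rose at every step, to 2.01-fold above YFP-negative (1.95 to 2.08). Its log2 ratio of 1.01 barely passed the rule; with total counts, TPM or a pseudocount of 2 CPM it did not, and against the parental library it was -1.29. LAMA1, the embryonic alpha chain, had 108 CPM in parental cells, 121 in YFP-negative and 179, 199 and 185 CPM in the YFP-positive fractions. LAMA1 thus made up 20.5% of alpha chain TPM in parental cells and 55.7% in YFP-negative, and LAMA5 75.1% and 37.1%.

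Other alpha chains stayed at 3.44 TPM or less, against 22.3 to 38.2 TPM for LAMA1. LAMA2, the alpha chain of muscle, fell at every step with 9.99, 9.96, 7.29 and 5.13 CPM (13.2 in parental). LAMA4, the alpha chain of vessel walls, had 280 reads in parental cells and 15, 4, 3 and 15 reads in the YFP fractions, 19.7-fold lower in YFP-negative (11.8 to 35.7).

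The beta and gamma chains were split. LAMB2 had 182 CPM in parental cells and 112, 94.5, 81.1 and 54.1 CPM in the YFP order, 2.06-fold lower in YFP-high than in YFP-negative (1.98 to 2.15). LAMB3, part of the laminin that anchors epidermis, had 178 CPM in parental cells and 228, 229, 179 and 102 from YFP-negative up to YFP-high, 2.24-fold lower (2.18 to 2.31). LAMB3 held level at low YFP and its drop came later. LAMA3, the alpha chain of the same trimer, had 0.267 to 0.548 TPM, far below 51.8 to 127 TPM for LAMB3, in every library.

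LAMC3, a gamma chain of restricted tissue range, rose at every step, with 22.4, 28.5, 38.9 and 56.0 CPM (27.1 in parental), 2.51-fold higher in YFP-high (2.37 to 2.65). LAMC1, the common gamma chain, had 391, 379, 367, 334 and 359 CPM, and LAMB1, the common beta chain, 159.8, 201, 179, 169 and 175 CPM. Over the 11 laminin genes 2 were higher and 2 lower in YFP-high against YFP-negative, beside 20.5% and 11.3% of all genes.

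**Figure D2:**
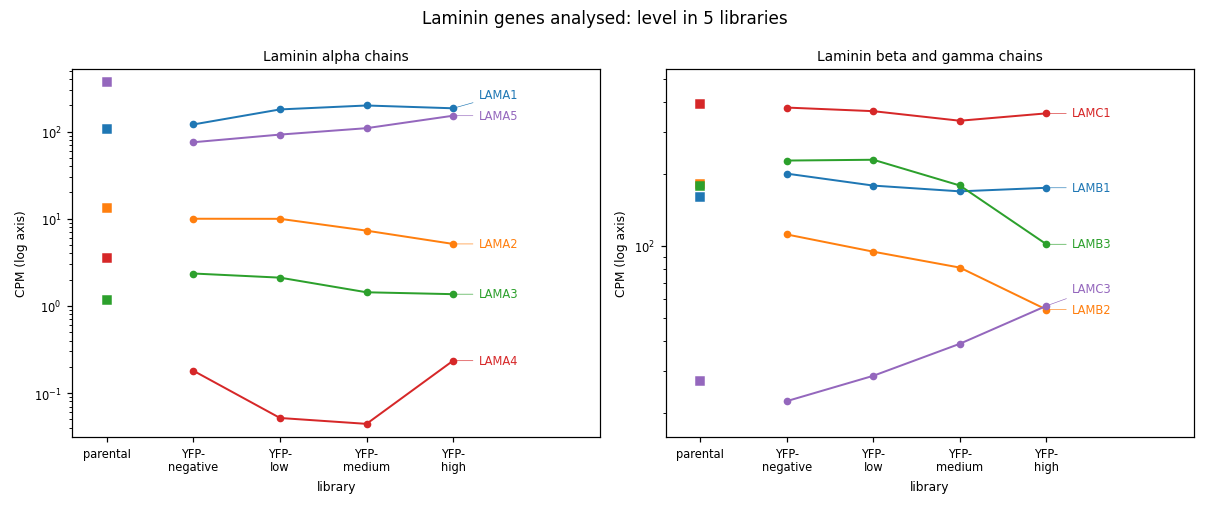
Level of 10 laminin genes analysed, in CPM on a log axis, in 1 library per group; squares are parental cells and joined circles the YFP fractions. LAMA5 stands at 373 CPM in parental cells and climbs from 75.4 to 152 CPM across the YFP fractions, while LAMB3 drops to 102 CPM in YFP-high.

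ITGB4 showed the largest ratio of YFP-high to YFP-negative among the 59 genes. The subunit pairs with ITGA6 alone, binds laminin and builds hemidesmosomes, the junctions that tie keratin filaments to the basement membrane of epithelia. It had 21.2 CPM in parental cells and 14.2, 32.6, 105 and 225 in the YFP order. Every YFP-positive fraction lay above both libraries without YFP, and it was the single member called in YFP-low. Against YFP-negative it was 2.30-fold (2.14 to 2.46), 7.39-fold (6.95 to 7.86) and 15.8-fold higher (14.9 to 16.8), and YFP-high was 10.6-fold above parental cells (10.1 to 11.2).

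ITGA6, its partner, did not rise with it, at 118 CPM in parental cells and 211, 213, 193 and 184 CPM in the YFP order. The TPM ratio of ITGB4 to ITGA6 was 0.163 in parental cells and 0.0613, 0.140, 0.496 and 1.11 across the YFP fractions. This ratio, free of library scaling, was 18.2 times higher in YFP-high than in YFP-negative. Of 7 epithelial markers 6 were analysed and 1, EPCAM, was higher in YFP-high, at 3.52-fold, beside 20.5% higher among all genes. The keratins KRT8, at 190 CPM in YFP-negative and 200.2 in YFP-high, and KRT18, at 339 and 240 CPM, made up most of the list's level. CDH1 went from 5.13 to 2.52 CPM, and KRT19 had 0 reads in all 5 libraries. KRT5 and KRT14 were both at 0.0939 CPM in YFP-high and passed the filter of 1 CPM only through other libraries. Against parental, 0 of the 6 markers were higher and 2 lower in YFP-negative, beside 2.15% and 2.93% of all genes. In YFP-high against parental 1 was higher and 2 lower, beside 21.3% and 14.9%. The list's summed level went from 539 to 454 CPM, from 578 in parental cells; its part in the ITGB4 result was not tested.

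Collagen receptors with the ITGB1 partner moved in opposite directions. ITGA1 and ITGA2 are neighbours on chromosome 5, and the 250 bases before each start are given for comparison (GRCh38.p14, plus strand, chr5:52787666-52787915 and chr5:52989102-52989351), with CCAAT and GGGCGG again in capitals.
ITGA1: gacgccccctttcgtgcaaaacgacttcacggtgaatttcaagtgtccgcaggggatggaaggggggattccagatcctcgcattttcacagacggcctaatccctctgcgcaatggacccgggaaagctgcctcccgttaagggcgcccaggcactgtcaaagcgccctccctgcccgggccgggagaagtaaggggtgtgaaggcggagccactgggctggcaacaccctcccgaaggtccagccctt
ITGA2: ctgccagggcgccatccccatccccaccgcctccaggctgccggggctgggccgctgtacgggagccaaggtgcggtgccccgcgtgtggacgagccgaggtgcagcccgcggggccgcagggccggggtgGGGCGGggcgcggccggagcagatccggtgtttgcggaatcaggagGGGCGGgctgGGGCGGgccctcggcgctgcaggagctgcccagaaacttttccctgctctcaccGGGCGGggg
The ITGA2 stretch held 4 GGGCGG and that of ITGA1 0, and neither held CCAAT. A link of these letters to the levels was not tested. ITGA2, a receptor for type I collagen, had 23.1 CPM in parental cells and 77.7, 64.2, 42.6 and 20.0 from YFP-negative up to YFP-high. It was 3.37-fold higher in YFP-negative than in parental cells (3.19 to 3.55) and then 3.90-fold lower in YFP-high (3.67 to 4.14), the largest fall among the 59 genes, which brought it back near the parental level (log2 ratio -0.21). ITGA1, which favours type IV collagen, had 8.15, 8.45, 11.9, 14.7 and 20.7 CPM and was 2.44-fold higher in YFP-high (2.23 to 2.68). With total counts ITGA1 no longer passed the rule. The TPM ratio of ITGA2 to ITGA1 was 3.30 in parental cells, 10.7 in YFP-negative and 1.12 in YFP-high. In GENCODE 2.56% of ITGA1 exon bases are shared with PELO, a gene on the same strand.

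ITGA11, a fibroblast receptor for fibrillar collagen, had 4.97 CPM in parental cells and 1.05, 1.46, 1.98 and 4.51 in the YFP order. Its 4.27-fold rise in YFP-high (3.35 to 5.49) ended below the parental level, and its log2 ratio against the parental library was -0.13. ITGA10, a cartilage receptor, stayed between 0.908 and 1.39 CPM.

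Laminin receptor alpha subunits included the most abundant alpha of parental cells. ITGA3 had 696 CPM in parental cells and 699, 604, 458 and 342 across the YFP fractions, so that both libraries without YFP were alike and each YFP step was lower. It was 2.04-fold lower in YFP-high (2.01 to 2.07), at the edge of the rule (log2 ratio -1.03) and past it no longer with DESeq2 size factors. ITGA7, a muscle laminin receptor, stayed between 42.8 and 55.4 CPM.

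The receptors for fibronectin, vitronectin and other ligands with an RGD motif shifted from ITGA5 to ITGAV. ITGA5, the alpha of the main fibronectin receptor, had 169 CPM in parental cells and 186, 165, 123 and 76.7 from YFP-negative up to YFP-high, 2.42-fold lower (2.35 to 2.50). ITGAV, which pairs with ITGB1, ITGB3, ITGB5, ITGB6 or ITGB8, had 403, 459, 597, 753 and 850.2 CPM. The order of ITGAV was unbroken, and its 1.85-fold difference in YFP-high (1.83 to 1.88) fell short of the rule against YFP-negative and passed it against parental, at 2.11-fold (2.08 to 2.14). The TPM ratio of ITGAV to ITGA5 was 1.35 in parental cells and 1.40, 2.06, 3.49 and 6.30 in the YFP order. Among alpha subunits, ITGA3 held 44.9% of the TPM in YFP-negative and 26.5% in YFP-high, and ITGAV 20.1% and 44.8%, so ITGAV replaced ITGA3 as the most abundant alpha from YFP-medium on.

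ITGA9, a receptor for tenascin and other ligands, had 40, 23, 26 and 23 reads from parental to YFP-medium and 155 in YFP-high, 8.80-fold above YFP-negative (5.65 to 14.3). It was level until the last step. In GENCODE 6.46% of its exon bases overlap ITGA9-AS1, on the other strand. ITGA4, its relative on leukocytes and embryonic cells, stayed between 13.0 and 18.2 CPM. Among alpha subunits known from blood cells, ITGAE stayed between 10.7 and 17.5 CPM and ITGA2B, the platelet subunit, between 0.611 and 1.36 CPM. ITGAX fell at every step, with 3.28, 3.20, 2.79, 1.55 and 1.36 CPM, just short of the rule (log2 ratio -0.99).

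ITGB1, the shared partner of most alpha subunits named here, was by far the most abundant integrin and nearly level. It had 2008 CPM in parental cells and 1881, 1947, 2001 and 1780.2 CPM in the YFP order, with 79.8% to 84.9% of beta subunit TPM in each library. ITGB5, a vitronectin receptor beta, had 239.7, 309.6, 302, 304 and 237 CPM. The TPM of ITGB5 relative to ITGAV fell from 1.53 in YFP-negative to 0.634 in YFP-high.

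Among the less abundant beta subunits, ITGB2, ITGB7 and ITGB8 were lower in YFP-negative than in parental cells. ITGB8 had 59.8 CPM in parental cells and 24.6, 21.0, 19.9 and 33.1 CPM in the YFP order, 2.43-fold lower in YFP-negative (2.30 to 2.56). ITGB3 fell at each step, from 18.3 CPM in parental cells to 10.4 in YFP-negative and 6.87 in YFP-high; 51.6% of its exon bases are shared with a gene model on the same strand. ITGB2, the leukocyte beta, had 6.99 CPM in parental cells and 1.92 to 2.60 CPM in the others; PTPRC, the pan-leukocyte marker, was at 0.0469 to 0.596 CPM. ITGB7 had 1.83, 0.599, 0.775, 0.649 and 1.67 CPM, but 42.1% of its exon bases overlap ZNF740 on the other strand, and counting by strand is not stated.

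**Figure D3:**
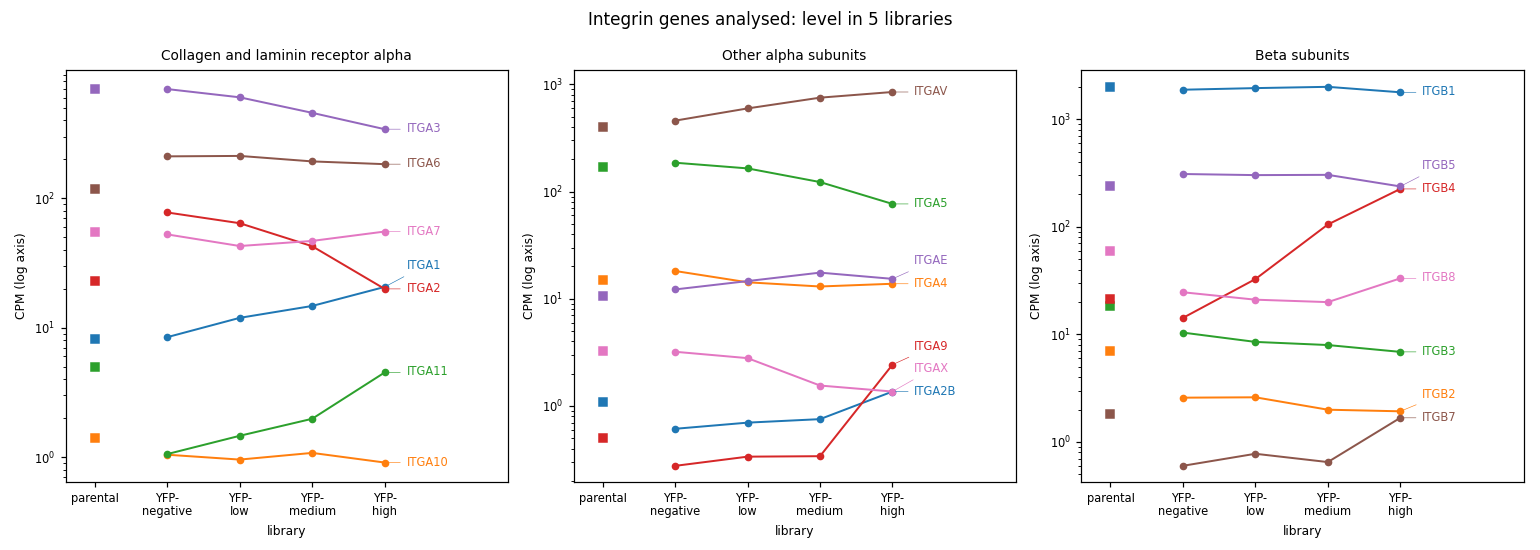
Level of the 21 integrin genes analysed, in CPM on a log axis, in 1 library per group; squares are parental cells and joined circles the YFP fractions. ITGB4 climbs from 14.2 to 225 CPM and ITGAV to 850.2 CPM, while ITGA2, ITGA3 and ITGA5 go down with YFP.

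**Figure D4:**
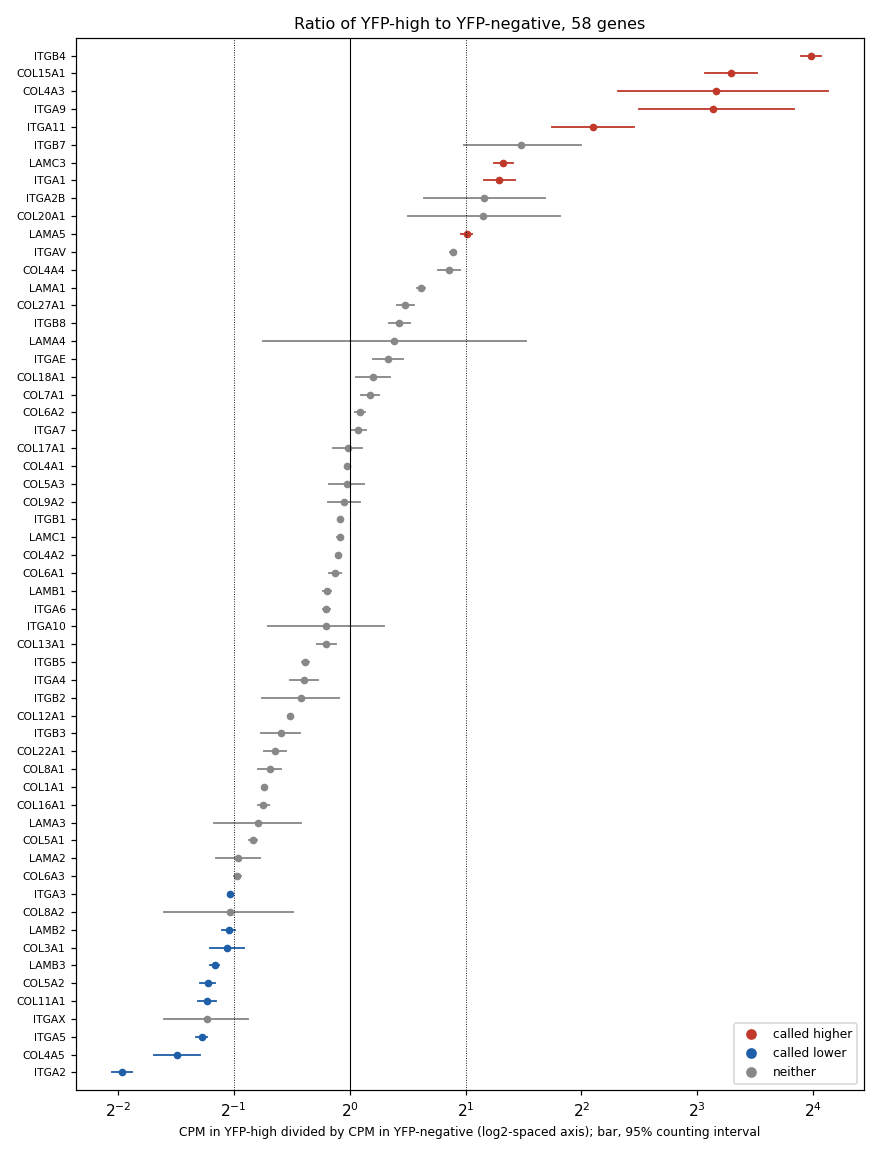
Ratio of the CPM in YFP-high to that in YFP-negative for 58 analysed genes, on a log2-spaced axis, with 95% counting intervals as bars, dotted lines at 2-fold, called higher in red and called lower in blue. Some grey points lie past a dotted line because the rule adds 0.5 CPM. ITGB4 lies at 15.8 and ITGA2 at 0.257, and 41 genes in grey are neither higher nor lower.

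**Figure D5:**
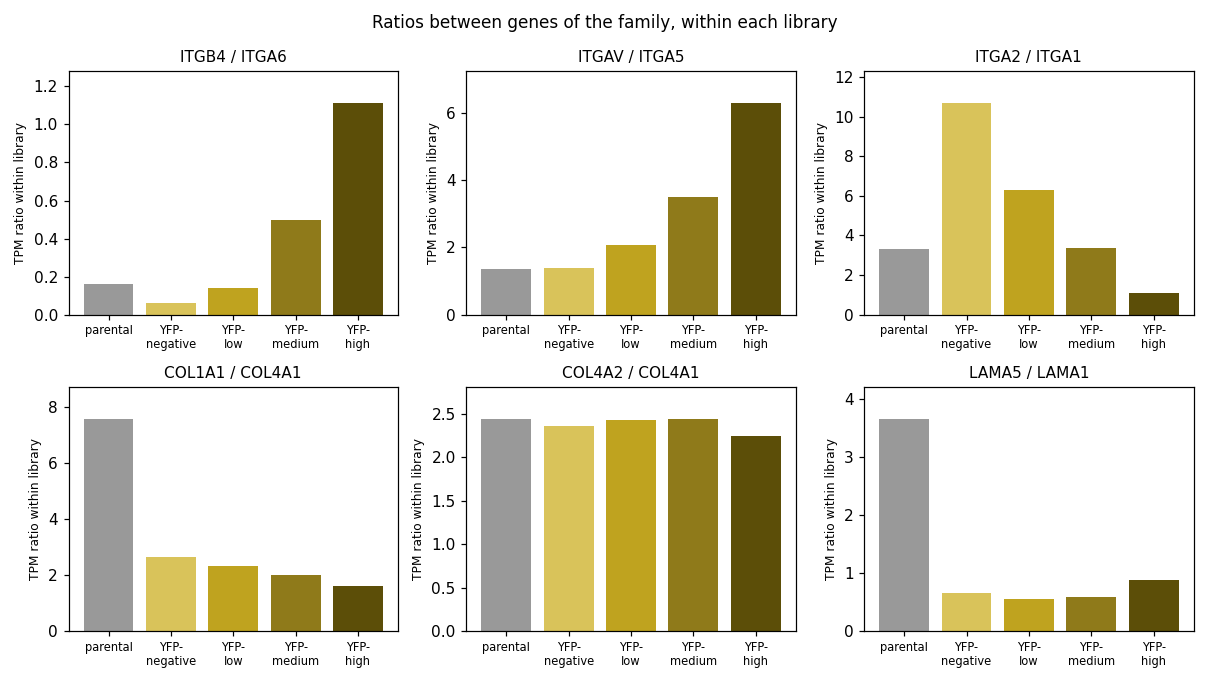
Ratios of TPM between pairs of genes within each of the 5 libraries, from 0. ITGB4 to ITGA6 goes from 0.0613 in YFP-negative to 1.11 in YFP-high and ITGAV to ITGA5 from 1.40 to 6.30, while COL4A2 to COL4A1 stays between 2.24 and 2.44.

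Summed per length, collagens made up 3152 TPM in parental cells and 1894, 1741, 1521 and 1352 TPM in the YFP order. Laminins gave 524 TPM in parental cells and 490.2, 478, 416 and 379.8 TPM, and integrins 2256 TPM and 2317, 2284, 2169 and 1958 TPM. All 3 sums were thus lowest in YFP-high, and the collagen sum showed the widest range. On the TPM scale the median log2 ratio of all genes in YFP-high against YFP-negative was itself -0.16.

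Genes that make, fold and cross-link collagen, and the 4 lists after them, gave 0 calls in YFP-low, beside 2.16% of all genes. They were followed beside the chains themselves. Of 26 in the table all were analysed, and 5 were higher and 1 lower in YFP-high against YFP-negative, beside 20.5% and 11.3% of all genes, with a median log2 ratio of -0.00313. In YFP-medium 2 were higher and 0 lower, beside 9.76% and 2.21% of all genes. ADAMTS2, which trims the amino end of procollagen, was 7.68-fold higher and LOXL3, a lysyl oxidase relative that cross-links collagen, 7.24-fold. LOXL1 was 2.07-fold lower, and SERPINH1, the collagen chaperone HSP47, had 624 CPM in parental cells, 382 in YFP-negative and 226 in YFP-high (log2 ratio -0.75). The other higher genes, chosen for naming once their values were known, were P4HA3, GLT25D2 and ADAMTS14, at 4.94, 1.77 and 3.30 CPM in YFP-high. All of them were thus below 5 CPM there. By the 2-fold rule a call at 1.77 CPM places GLT25D2 below the filter of 1 CPM in YFP-negative.

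Of 16 other basement membrane and matrix ligand genes analysed, 2 were higher and 2 lower in YFP-high, beside 20.5% and 11.3% of all genes. Their median log2 ratio was -0.36. FBLN5, an elastic fibre protein, was 7.80-fold and NID2, which links laminin to type IV collagen, 3.71-fold higher. THBS1, a matrix protein bound by integrins and CD47, was 2.99-fold lower and TGFBI 2.50-fold lower.

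On the inside of the membrane, 24 genes of the integrin adhesion complex gave 1 higher and 4 lower in YFP-high, beside 20.5% and 11.3% of all genes, with a median log2 ratio of -0.25. VCL, which links talin to actin, was 3.03-fold lower, FERMT1 3.25-fold, the tensin TNS1 2.92-fold and ZYX, a protein of stress fibres, 2.52-fold lower. The higher gene, named after its values were seen, was FERMT2, a kindlin that activates integrins, with 198 CPM in YFP-negative and 472 in YFP-high.

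Among 13 other matrix receptors 1 was higher and 2 lower in YFP-high against YFP-negative, beside 20.5% and 11.3% of all genes. The collagen-binding kinase DDR2 was 2.64-fold and the hyaluronan receptor CD44 2.13-fold lower, and the syndecan SDC1 2.03-fold higher. Of 16 matrix proteases and inhibitors 1 was higher and 3 lower, beside the same shares of all genes. MMP15, a membrane-bound metalloprotease, was 11.3-fold higher, from 21.4 to 241 CPM. PLAU, the urokinase that activates plasminogen, was 3.68-fold lower and TIMP3, a metalloprotease inhibitor, 2.51-fold lower.

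The promoter windows of the members were searched for TTTCCCGC, TTTGGCGC, TTTCGCGC and TTTGCCGC, spellings of the E2F site, on both strands. RefSeq held 76 windows of 250 bases before to 50 after a start for 57 of the 81 genes. A match stood in 1 window, that of COL5A3 (1.32%), beside 3.31% of all 35116 windows. In the 13 windows found for 11 of the 17 genes called in YFP-high against YFP-negative there were 0 matches. ITGB4 and COL1A1 had no window in the table, and the absence of these letters says nothing about binding elsewhere.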

How the data were processed

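RNA of 5 sorted or parental cell samples was made into libraries by Illumina protocols, per the labels. The authors deposited 2 tables by gene name: raw read counts and TPM values scaled to 1000000 per library. Named in the submitters' processing notes are HTSeq 0.6.0, HISAT2 2.0.3, Trimmomatic 0.36, bcl2fastq, CASAVA 1.8.2 and the build hg19; annotation, strand setting and TPM tool are not named. Where a gene had 100 or more reads in every library, 97.3% of 12399 genes had deposited TPM within 1% of counts scaled per gene and library.

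Library sizes were summed over rows with a gene name only; such rows held 75.7% to 77.7% of all counted reads, and the unnamed row at most 0.000964% of gene reads. TMM factors from edgeR 4.0.16 under R 4.3.3, computed over all genes, scaled the counts and lay between 0.904 (YFP-high) and 1.09 (YFP-negative). Folds have no pseudocount, and their 95% intervals are exact Clopper-Pearson intervals of 1 count out of the sum of the pair. Since PCR copies molecules, these cover counting error alone. A count of 3 reads, the limit that 0 reads allow, lies between 0.0360 CPM (YFP-negative) and 0.0469 CPM (YFP-high). TPM served for levels between genes. Python 3.11.15 ran the remaining steps with scipy 1.17.1, pandas 2.3.3, numpy 2.4.6 and matplotlib 3.10.9. Promoter windows are RefSeq's on GRCh38.p14 and exon overlaps GENCODE's on GRCh38, another build than the deposited counts. Some values are not reported here.

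The members, the lists and the rules were chosen with earlier results of these data known. Every member may be named; values in all 5 libraries are given for called members and for the most abundant of each class, and up to 4 genes per list of other genes with the largest change and at least 5 CPM. As alternatives, the parental library served as baseline, the fold rule was set to 1.5, the deposited TPM replaced CPM, the pseudocount was 2 CPM, the filter was dropped or set to 5 CPM, and scaling used total counts or size factors of DESeq2 1.42.0.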

Additional observations from a re-analysis of the deposited data

How the results depend on the processing

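No paired analysis was possible because each group held 1 library. For the counts of higher and lower members, their medians and the counts of ordered members, DESeq2 size factors, no filter or the deposited TPM moved no count by more than 1.5 times and no median to the other sign. With total counts the members lower in YFP-high against YFP-negative numbered 15, beside 19.0% of all genes. Those lower in YFP-medium numbered 2, beside 5.19%, with a median of -0.40 beside -0.22 for all genes. Those falling at every step numbered 28, beside 40.2% of all genes. A filter of 5 CPM gave 5 higher in YFP-high and 7 rising at every step, from 48 members, beside 20.1% and 25.8% of all genes. A pseudocount of 2 CPM gave 5 higher in YFP-high, beside 16.5%. The 1.5-fold rule gave 7 higher and 10 lower in YFP-medium, beside 19.0% and 11.8% of all genes. In YFP-high it gave 14 higher and 19 lower, beside 29.3% and 25.4%. Against parental it gave 11 higher in YFP-high, beside 30.1%, and 6 higher in YFP-negative, beside 6.61%. The cause of these shifts was not tested beyond the looser or stricter rule itself.

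Of the 17 members called in YFP-high against YFP-negative, 15 kept their call with DESeq2 size factors, 15 with total counts, 15 with TPM and 13 with a pseudocount of 2 CPM. With the parental library as baseline ITGA11 turned to -0.13 and LAMA5 to -1.29. COL4A3 (0.74), ITGA2 (-0.21) and LAMB3 (-0.80) kept their direction there but not their call. Depth limits the 8 members below 1 CPM in at least 1 library: COL20A1, COL4A3, ITGA9, LAMA4, COL8A2, ITGA2B, ITGB7 and ITGA10.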
